A study of Mus musculus with 2 samples.

Results

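The insulin and insulin-like growth factor (IGF) genes described here are 8 of the 46983 genes counted in the series: the receptors Insr and Igf1r, the receptor substrates Irs1 and Irs2, and the binding-protein genes Igfbp3, Igfbp4, Igfbp5 and Igfbp7. They were taken by symbol, and their unique molecular identifiers (UMIs, each standing for 1 captured transcript end) were summed over cells by library and by cell class. The samples were endocrine pancreas cells of mice at postnatal day 9, sorted for the tdTomato reporter and profiled by 10x Chromium 3' single-cell RNA sequencing. The control animals were Neurod1 Cre/+; Isl1f/+ and the Isl1CKO animals were Neurod1 Cre/+; Isl1f/f, so both groups carried Neurod1 Cre and at least 1 floxed allele of Isl1, a LIM homeodomain factor of endocrine cells. Each genotype was 1 library pooled from 6 animals, and the transcription inhibitor actinomycin D was present while cells of both were dissociated. With 1 library per genotype no difference could be tested between genotypes. Intervals are 95% exact Poisson or conditional binomial intervals that cover counting error only.

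Insulin and the IGFs bind the related tyrosine kinase receptors encoded by Insr and Igf1r. The activated receptors phosphorylate the scaffold proteins IRS1 and IRS2, which recruit PI3-kinase and pass the signal to Akt, mTOR and the FoxO factors. Secreted IGF binding proteins hold IGFs in the extracellular space and are cut by proteases such as the pappalysins. In beta cells this pathway is known for its part in growth, survival and the response to insulin itself. IGFBP3, IGFBP4 and IGFBP5 bind IGFs with high affinity, and IGFBP7 is a related secreted protein that binds them weakly.

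The control library held 2504 called cells with 72548173 UMIs and the Isl1CKO library 3020 cells with 78068592 UMIs, at medians of 22638.5 and 24906.5 UMIs per cell. Only 4 barcodes occurred in both. The 8 hormone genes left out of the denominators took 53.3% of UMIs in the control and 12.2% in Isl1CKO, so levels are given as UMIs per 1000000 UMIs outside those genes. Classes were cut by share of UMIs. The control held 898 insulin-high cells (Ins1 and Ins2 at least 20%), 617 Gcg-high cells (at least 10%) and 539 Sst-high cells (at least 5%). Isl1CKO held 383 insulin-high cells, 1445 Ttr-high cells (Ttr at least 5%) and 2035 Fev-positive cells (at least 3 Fev UMIs), with 1031 cells both Ttr-high and Fev-positive and 145 both insulin-high and Fev-positive. The 865 Fev-positive cells that were neither Ttr-high nor insulin-high are called Fev-only, and levels by class are given for them. The targeted gene Isl1 had levels of 542 in the control and 525 in Isl1CKO. The sources used here do not give the deleted part of Isl1, and a 3' tag outside it checks nothing. In the insulin-high cells 8 of 8 beta-cell markers had UMIs in both libraries. The Ttr-high cells had UMIs of 8 of 8 alpha-cell markers, Ttr among them, and of 6 of 6 progenitor and enterochromaffin markers such as Fev and Chgb. Only 2 Isl1CKO cells were Gcg-high, so the Ttr-high cells are called by the gene that cut them.

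Over whole libraries, Igfbp3 was higher and Igfbp5 and Irs1 were lower in Isl1CKO. A gene was counted as past the rule when its ratio differed at least 2-fold from that of the median gene and it had at least 50 UMIs in the group with the higher level. Of the 8 members, all were compared, 1 passed upward and 2 downward. Among all 14087 genes compared, 5.34% passed upward and 6.98% downward. The median gene itself had a log2 ratio of -0.33, and ratios below are relative to it. Of all genes past the rule, 43.3% were higher, against 22.8% without centring and 82.8% per 1000000 of all UMIs. In these sums, a different mix of cell types and a different level per cell cannot be told apart.

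**Figure D1:**
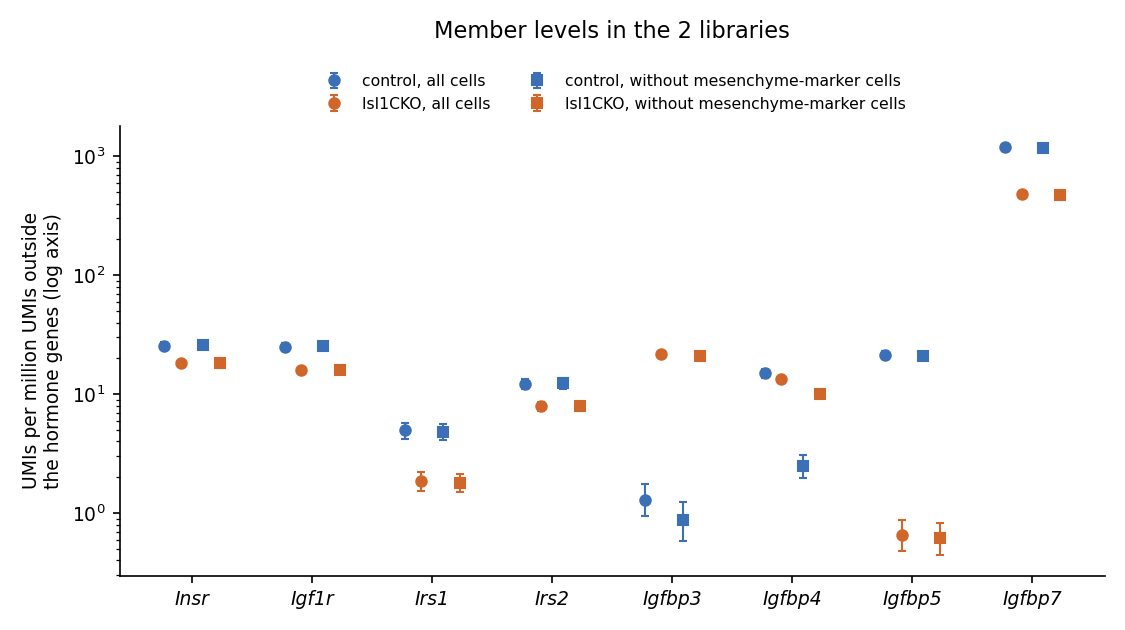
Levels of the 8 genes in UMIs per 1000000 UMIs outside the hormone genes (log axis) in control (blue) and Isl1CKO (orange), in all cells (circles) and without mesenchyme-marker cells (squares), with 95% counting intervals. Igfbp3 and Igfbp5 lie more than 10-fold apart in opposite directions, and the control value of Igfbp4 falls from 14.9 to 2.49 when the mesenchyme-marker cells are left out.

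The receptors were counted in all endocrine classes and, per UMI outside the hormone genes, were lowest in Ttr-high cells. Insr, the insulin receptor (chr8:3122061-3279617, minus strand, GRCm38), had levels of 27.1 in insulin-high, 25.2 in Gcg-high and 26.7 in Sst-high control cells. These 3 control values have overlapping intervals. Control barcodes with 1 to 100 UMIs had 17.7 (12.3 to 24.7), which overlaps all 3. Per 1000000 of all UMIs, hormone UMIs included, the 3 class values were 8.42, 17.0 and 18.5, so the insulin-high value is then the lowest. In Isl1CKO its level was 36.7 in insulin-high cells, 29.4 in Fev-only cells and 10.4 in Ttr-high cells (9.43 to 11.4). The Ttr-high value lay below those of the other 5 classes, with no overlap of intervals. Per 1000000 of all UMIs it was 10.2, above the 8.42 of control insulin-high cells and below the other 4. Between genotypes, the whole-library levels were 25.6 and 18.2, a relative log2 ratio of -0.16 (-0.29 to -0.04).

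Igf1r, the IGF1 receptor (chr7:67952827-68233668, plus strand), varied more between classes than Insr. In the control its level was 39.9 in insulin-high cells, 22.7 in Sst-high cells and 11.7 in Gcg-high cells, and these intervals did not overlap. In Isl1CKO it was 44.8 in insulin-high cells, 33.9 in Fev-only cells and 3.63 in Ttr-high cells. Of the 3 classes in each library, insulin-high cells were thus highest, and Gcg-high or Ttr-high cells lowest. Per 1000000 of all UMIs the lowest classes were again these, at 7.92 and 3.59, but Sst-high (15.7) and Fev-only cells (32.0) then lay above insulin-high cells (12.4 and 20.4). An Igf1r UMI was seen in 53.8% of Isl1CKO insulin-high cells and 8.86% of Ttr-high cells. After each cell was thinned to 5000 UMIs, the shares were 10.4% and 1.59%. Over whole libraries Igf1r stood at 24.9 and 16.0, a relative log2 ratio of -0.31. For Insr, Igf1r and Irs2 the whole-library ratio changes sign per 1000000 of all UMIs, so no direction is read from it.

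Within insulin-high cells both receptors were somewhat higher in Isl1CKO. Insr went from 27.1 to 36.7 by level, a relative log2 ratio of 0.59 (0.35 to 0.83), and Igf1r went from 39.9 to 44.8, a ratio of 0.32. Neither reached the 2-fold rule. The only member past it there was Igfbp5, lower. Of 10675 genes compared, 4.75% passed upward and 4.38% downward, and 6 members were compared. Igfbp3, with 11 UMIs in Isl1CKO and 2 in the control, and Igfbp4, with 9 and 11, had too few to be compared. Of all genes past the rule in this comparison, 52.0% were higher, against 40.9% without centring and 81.3% per 1000000 of all UMIs.

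The substrates were sparse. Irs1 (chr1:82233101-82291416, minus strand) had 168 UMIs in the control and 127 in Isl1CKO, levels of 4.95 and 1.85. Its relative log2 ratio was -1.09 (-1.43 to -0.75). Insulin-high cells held 72.0% of the control's Irs1 UMIs, at a level of 9.10, against 2.82 in Gcg-high and 1.22 in Sst-high cells. In Isl1CKO the level was 4.95 in insulin-high cells, 3.38 in Fev-only cells and 0.671 in Ttr-high cells. Within insulin-high cells the relative log2 ratio between genotypes was -0.73 (-1.33 to -0.17), short of the rule. The whole-library difference of Irs1 therefore sits beside a fall in the share of insulin-high cells, from 35.9% to 12.7%, and how much of it that share accounts for was not tested. The call was lost per 1000000 of all UMIs (-0.51), by the mean of per-cell levels (-0.59) and without cells of several classes (-0.55).

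Irs2 (chr8:10984681-11008458, minus strand), the other main substrate of islet cells, had its highest level in control Gcg-high cells, at 19.5 (16.8 to 22.6). Control insulin-high cells had 11.1 and Sst-high cells 9.95, with overlapping intervals. In Isl1CKO it was 10.6 in Fev-only cells, 9.30 in insulin-high cells and 6.69 in Ttr-high cells. Irs1 and Irs2 thus had different leading classes in the control, insulin-high for the first and Gcg-high for the second. Per 1000000 of all UMIs these 2 were again the leading control classes, but Irs2 was 6.61 in Ttr-high cells, above the 3.44 and 4.22 of control and Isl1CKO insulin-high cells. Over whole libraries Irs2 stood at 12.2 and 7.89, a relative log2 ratio of -0.29.

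**Figure D2:**
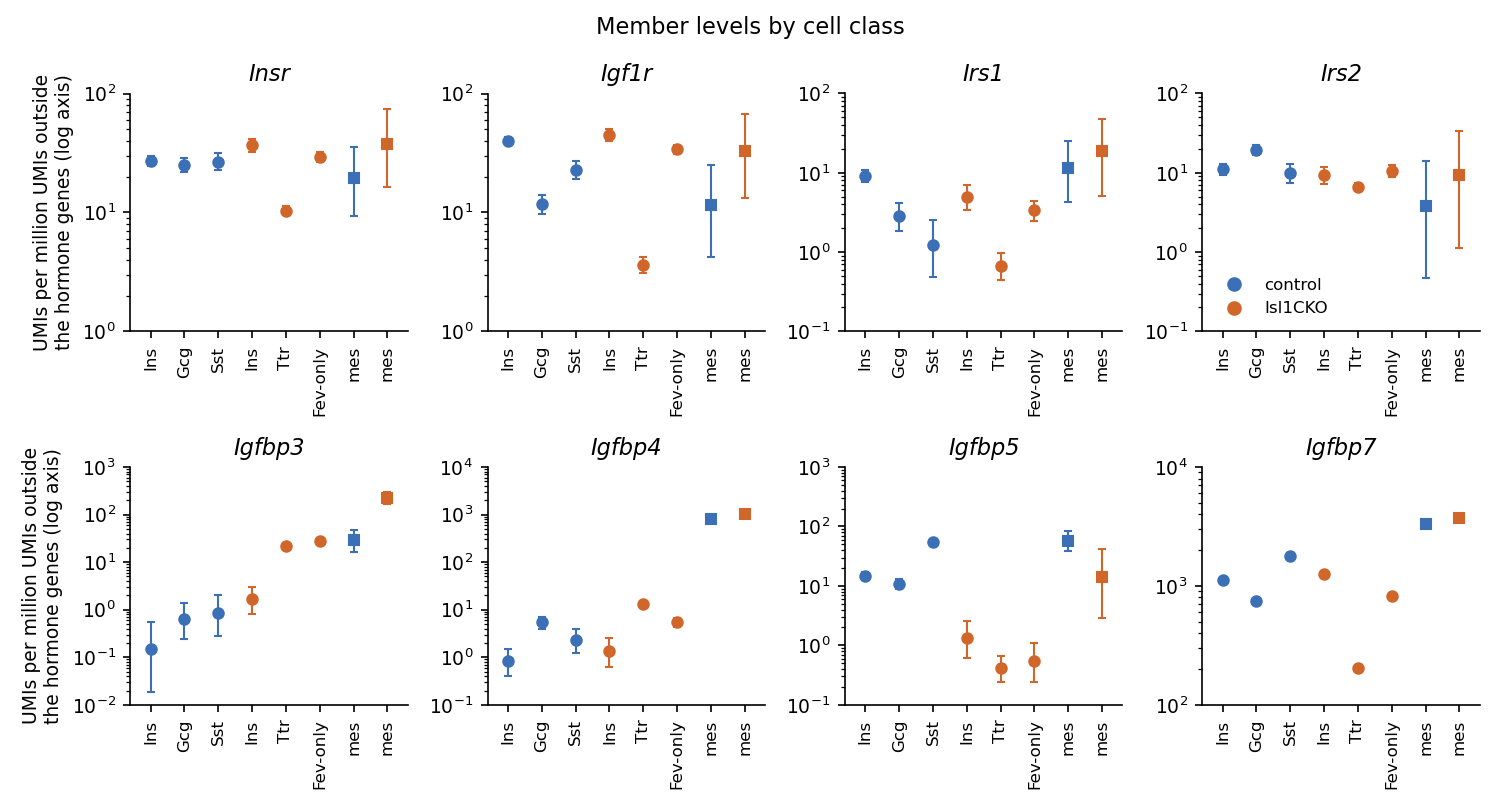
Levels of each gene (UMIs per 1000000 UMIs outside the hormone genes, log axis, with 95% counting intervals) in control (blue) insulin-high (Ins), Gcg-high and Sst-high cells, in Isl1CKO (orange) insulin-high, Ttr-high and Fev-only cells (neither Ttr-high nor insulin-high), and in mesenchyme-marker cells (mes, squares). Ttr-high cells have the lowest value of the 6 endocrine classes for Insr, Igf1r, Irs1, Irs2, Igfbp5 and Igfbp7 on this scale. Their intervals overlap those of another class for Irs1 (Sst-high), Irs2 (Isl1CKO insulin-high) and Igfbp5 (Fev-only). Per 1000000 of all UMIs the lowest rank no longer holds for Insr and Irs2. Mesenchyme-marker cells have Igfbp4 at 819 and 1042.

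The binding-protein genes had the largest differences. Igfbp3 (chr11:7206086-7213923, minus strand) and Igfbp4 (chr11:99041244-99054392, plus strand) lie on the same chromosome, and Igfbp5 (chr1:72857932-72874884, minus strand) lies on another. The 250 bases before the RefSeq start of these 3 genes are shown because these members have the largest ratios in the comparison of Ttr-high with Gcg-high cells below. They come from RefSeq (GRCm38.p6), which matched 7 of the 8 members, and read 5' to 3' on the gene's strand. The windows are chr11:7213924-7214173 for Igfbp3, chr11:99040994-99041243 for Igfbp4 and chr1:72874866-72875115 for Igfbp5. The RefSeq start of Igfbp5 lies inside the gene span given above, so the last bases of its window overlap that span. Capitals mark TATAAA.
Igfbp3: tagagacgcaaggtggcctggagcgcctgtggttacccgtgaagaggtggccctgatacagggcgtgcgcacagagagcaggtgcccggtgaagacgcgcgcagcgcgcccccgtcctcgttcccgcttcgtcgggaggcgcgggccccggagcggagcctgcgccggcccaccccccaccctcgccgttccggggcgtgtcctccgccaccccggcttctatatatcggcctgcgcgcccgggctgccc
Igfbp4: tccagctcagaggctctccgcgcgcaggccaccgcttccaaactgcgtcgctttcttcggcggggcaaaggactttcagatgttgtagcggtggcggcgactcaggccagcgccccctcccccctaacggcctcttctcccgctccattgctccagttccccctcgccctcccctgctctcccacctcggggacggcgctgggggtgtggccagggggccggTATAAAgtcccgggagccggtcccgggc
Igfbp5: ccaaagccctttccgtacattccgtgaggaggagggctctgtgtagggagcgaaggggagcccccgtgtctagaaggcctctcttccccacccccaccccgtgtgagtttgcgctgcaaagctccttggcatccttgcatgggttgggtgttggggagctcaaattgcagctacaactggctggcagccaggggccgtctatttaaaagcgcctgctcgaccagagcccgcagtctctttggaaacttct
Over the 300-base window with 50 bases after the start, Igfbp5 had 56.3% G and C and 10 CpG pairs, Igfbp3 71.7% and 37, and Igfbp4 71.3% and 27. TATAAA, searched on both strands, was found in Igfbp4 28 bases before the start (-28) and in no other matched member, and 13.6% of 32851 promoter windows held it. The letters GTAAACA, a FoxO-type motif, and CTAATG, an Isl1-type motif, occurred in none of the 7 windows on either strand, against 3.65% and 7.36% of all windows.

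Igfbp3 was nearly absent from control endocrine classes and was counted in Isl1CKO mostly in cells outside the insulin-high class. The control had 44 UMIs in all, a level of 1.30, and Isl1CKO had 1490, a level of 21.7. The relative log2 ratio was 4.40 (3.97 to 4.86). In control insulin-high, Gcg-high and Sst-high cells the level was 0.150, 0.651 and 0.873, from 2, 6 and 5 UMIs. In Isl1CKO it was 1.65 in insulin-high cells, 21.9 in Ttr-high cells and 28.1 in Fev-only cells. The Ttr-high and Fev-only values lay above those of all 4 other classes. Insulin-high cells had 11 UMIs in Isl1CKO, 5 of them in 1 cell, and 2 in the control. Their intervals, 0.824 to 2.95 and 0.018 to 0.543, did not overlap, but these UMIs were too few to be compared by the rule. A UMI was seen in 28.2% of Ttr-high cells at a median of 29017 UMIs, against 1.83% of insulin-high cells of the same library at a median of 38693. Free RNA of that library was not analysed. In the control the share was 0.81% in Gcg-high and 0.223% in insulin-high cells. Thinned to 5000 UMIs, the share was 7.75% in Ttr-high and 0.261% in insulin-high cells of Isl1CKO and 0.162% in Gcg-high cells. The Igfbp3 count was concentrated in part of the Ttr-high cells, since 1038 of 1445 had none and 107 had 3 or more, with a highest count of 21.

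The few Igfbp3 UMIs of the control came largely from small groups. Chgb-rich cells (Chgb, a granin of secretory granules, at least 2% of UMIs) held 19 of the 44 UMIs in 62 cells, a level of 19.1 (11.5 to 29.8). Their Isl1CKO counterparts, 916 cells, had 22.9 (20.8 to 25.2). The relative log2 ratio within Chgb-rich cells was 0.18 (-0.48 to 0.92), so no genotype difference of Igfbp3 was detectable there at this depth. The only member past the rule in that comparison was Igfbp4, at 1.37 (-0.20 to 3.66) from 3 control UMIs, while 6.48% of 6864 genes passed upward and 1.02% downward. The 50-UMI minimum falls on the group with the higher level, so with 62 control cells a lower gene was harder to count than a higher one. Igfbp5 (-1.72, 1 control UMI) and Insr (-0.88, 41 control UMIs) were not compared. The Chgb-rich group was chosen after the values were seen, and 1 control cell held 7 of its 19 Igfbp3 UMIs. In Fev-positive cells, also cut alike in both libraries, Igfbp3 was past the rule, at 4.14 in 237 control cells and 23.6 in 2035 Isl1CKO cells, a relative log2 ratio of 2.73 (2.01 to 3.58). In that comparison Igfbp4 (1.07) was also higher and Igfbp5 (-5.08) and Igfbp7 (-1.14) lower, while 6.34% of 9682 genes passed upward and 2.76% downward. The same limit on lower genes applies to these shares. Of the control's Fev-positive cells, 50 were Chgb-rich and held 12 of their 15 Igfbp3 UMIs. Mesenchyme-marker cells held another 15 of the 44.

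Igfbp4 had similar whole-library levels, 14.9 in the control and 13.3 in Isl1CKO, from different cells. In the control, 52 cells with at least 20 UMIs of 10 mesenchyme markers such as Col1a1 and Col3a1 held 424 of 507 Igfbp4 UMIs, or 83.6%. In Isl1CKO, 24 such cells held 222 of 912, or 24.3%, and Ttr-high cells held 61.5%. Without these cells, a choice made after the data were seen, the level was 2.49 in the control and 10.1 in Isl1CKO, a relative log2 ratio of 2.34 (2.01 to 2.69) in place of 0.16. Igfbp4 was then past the rule, with 5.85% of 13940 genes passing upward and 6.18% downward, and Irs1, Igfbp3 and Igfbp5 also passed.

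By class, the control had Igfbp4 at 5.42 in Gcg-high, 2.27 in Sst-high and 0.827 in insulin-high cells. Isl1CKO had 13.0 in Ttr-high cells, 5.45 in Fev-only cells and 1.35 in insulin-high cells. Gcg-high and Ttr-high cells were thus the highest of the classes in their libraries. The Gcg-high value rests on 50 UMIs, 11 of them in 1 cell, and 2 Gcg-high cells were also mesenchyme-marker cells. A UMI was counted in 23.5% of Ttr-high and 1.83% of Isl1CKO insulin-high cells. After thinning the Ttr-high share was 5.47%. In thinned Ttr-high cells, 5 of 112 cells with Igfbp3 also had Igfbp4, or 4.46%, against 5.55% of those without Igfbp3. The mesenchyme markers had a summed level of 310.6 in all control and 71.5 in all Isl1CKO cells, but 2.89 in Ttr-high and 50.3 in Gcg-high cells.

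**Figure D3:**
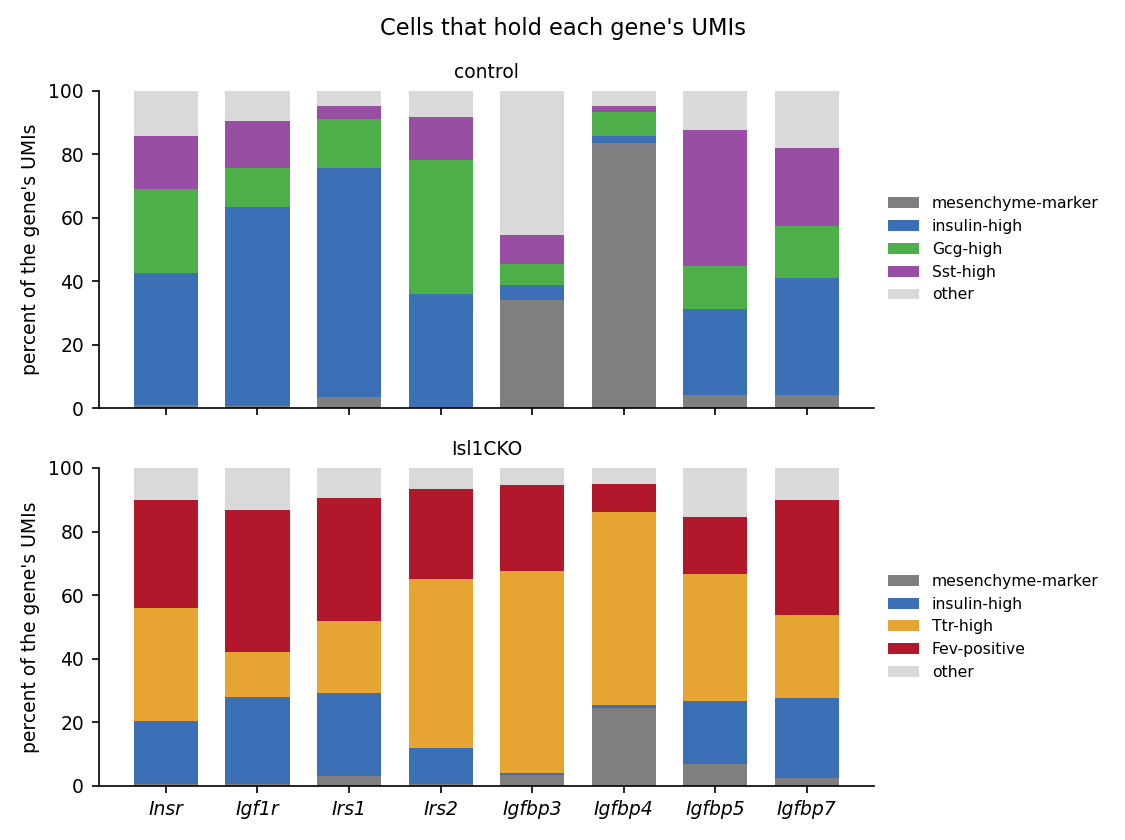
Percent of each gene's UMIs by source in the control (top) and Isl1CKO (bottom), each cell counted once in the order of the legend. Mesenchyme-marker cells hold 83.6% of control Igfbp4 UMIs, and Ttr-high cells hold 63.5% of Isl1CKO Igfbp3 UMIs.

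Igfbp5 was lower in Isl1CKO over whole libraries and within insulin-high cells. The control had 725 UMIs, a level of 21.4, and Isl1CKO had 45, a level of 0.656. The relative log2 ratio was -4.69 (-5.16 to -4.26). In the control its level was 55.2 in Sst-high, 14.7 in insulin-high and 10.8 in Gcg-high cells. The Sst-high value stood clear of the others, whose intervals overlapped. Free RNA also held Igfbp5, since control barcodes with 1 to 100 UMIs had a level of 13.0 (8.42 to 19.2), which overlaps the insulin-high and Gcg-high values. Control Chgb-rich cells, a group chosen after the values were seen, had 1.01 (0.025 to 5.6) from 1 UMI, below both classes. The part of free RNA in the insulin-high and Gcg-high values was not tested. In Isl1CKO it was 1.35 in insulin-high, 0.416 in Ttr-high and 0.552 in Fev-only cells. Within insulin-high cells 196 control and 9 Isl1CKO UMIs gave a relative log2 ratio of -3.30 (-4.45 to -2.35). An Igfbp5 UMI was seen in 35.4% of Sst-high cells and 14.5% of insulin-high cells of the control, and in 1.83% of insulin-high cells of Isl1CKO. Isl1CKO held 6 Sst-high cells, with 2 UMIs and a level of 35.7 (4.33 to 129.1), so the leading class could not be compared.

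**Figure D4:**
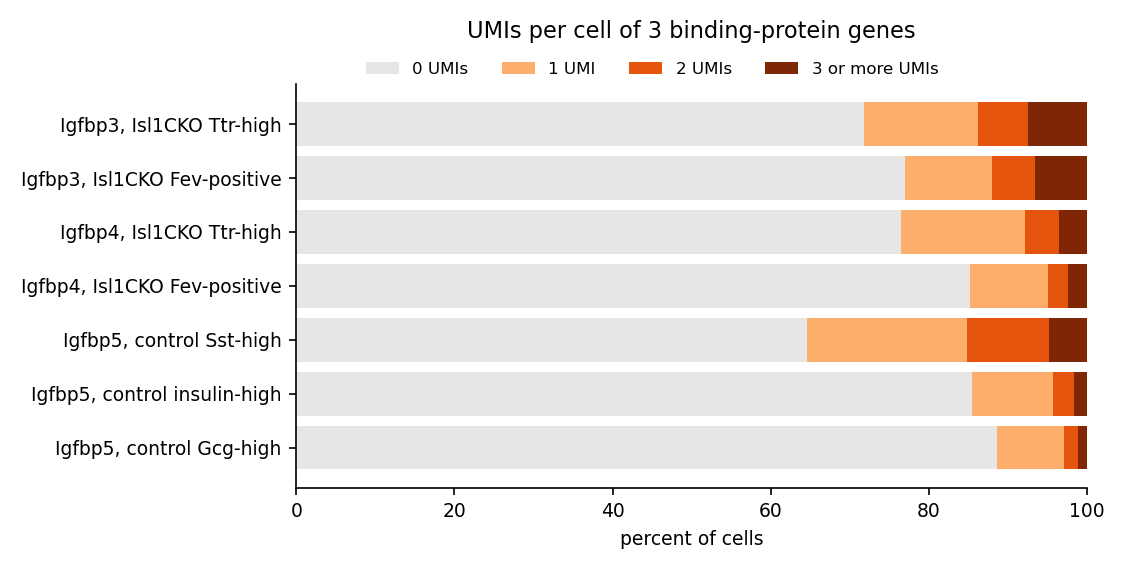
Percent of cells with 0, 1, 2 or 3 and more UMIs of Igfbp3 and Igfbp4 in Isl1CKO classes and of Igfbp5 in control classes, not thinned. Most cells of each class have 0 UMIs, and 35.4% of Sst-high cells have an Igfbp5 UMI.

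Igfbp7 (chr5:77349240-77408041, minus strand) was by far the most abundant member. The control had 40764 UMIs, a level of 1202, and Isl1CKO 33168, a level of 484. The relative log2 ratio was -0.98, just short of the rule, and -1.31 without centring. In the control it was 1786 in Sst-high, 1131 in insulin-high and 742 in Gcg-high cells. In Isl1CKO it was 1260 in insulin-high, 829 in Fev-only cells and 203 in Ttr-high cells. Insulin-high cells differed little between genotypes (relative log2 ratio 0.30, 0.26 to 0.34), and Ttr-high cells were lowest of the 6 classes. Per 1000000 of all UMIs insulin-high cells had 351 in the control and 572 in Isl1CKO, below Gcg-high (502) and Fev-only cells (782), and Ttr-high cells were still lowest, at 201. Igfbp7 was also common in free RNA: control barcodes with 1 to 100 UMIs had a level of 1306, so its detection in 98.7% of control cells is not read as expression in each. The same barcodes had 17.7 for Insr (12.3 to 24.7), 12.5 for Igf1r (8.0 to 18.6), 2.60 for Irs1 (0.85 to 6.07) and 7.29 for Irs2 (3.98 to 12.2). By interval these barcodes overlap all 3 control endocrine classes for Insr, and Gcg-high cells for Igf1r. They overlap Gcg-high and Sst-high cells for Irs1, and insulin-high and Sst-high cells for Irs2. They had 21.9 for Igfbp4, above its 3 control endocrine classes, and 0 UMIs of Igfbp3, with an interval that reaches 1.92. The free RNA of the Isl1CKO library was not analysed here. Exons of Polr2b overlap Igfbp7 on the other strand, and the sources used here do not give whether counting used strand. The same holds for Gm9747 at Irs1 and 9530052E02Rik at Irs2.

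The largest number of members passed the rule when Isl1CKO Ttr-high cells were set beside control Gcg-high cells. Both express alpha-cell markers, but they were cut by different genes. Of 7 members compared, Igfbp3 and Igfbp4 were higher and Igf1r, Irs2, Igfbp5 and Igfbp7 lower, while 9.28% of 11422 genes passed upward and 7.36% downward. The relative log2 ratios were 5.46 for Igfbp3, 1.65 for Igfbp4, -1.16 for Irs2, -1.30 for Igf1r, -1.48 for Igfbp7 and -4.32 for Igfbp5. Insr, at -0.89 (-1.12 to -0.66), fell short of the rule. Irs1 had too few UMIs to compare. Of all genes past the rule, 55.8% were higher, against 23.2% without centring and 68.7% per 1000000 of all UMIs. Irs2 was no longer past the rule per 1000000 of all UMIs, at -0.999, or without cells of several classes, at -0.58.

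**Figure D5:**
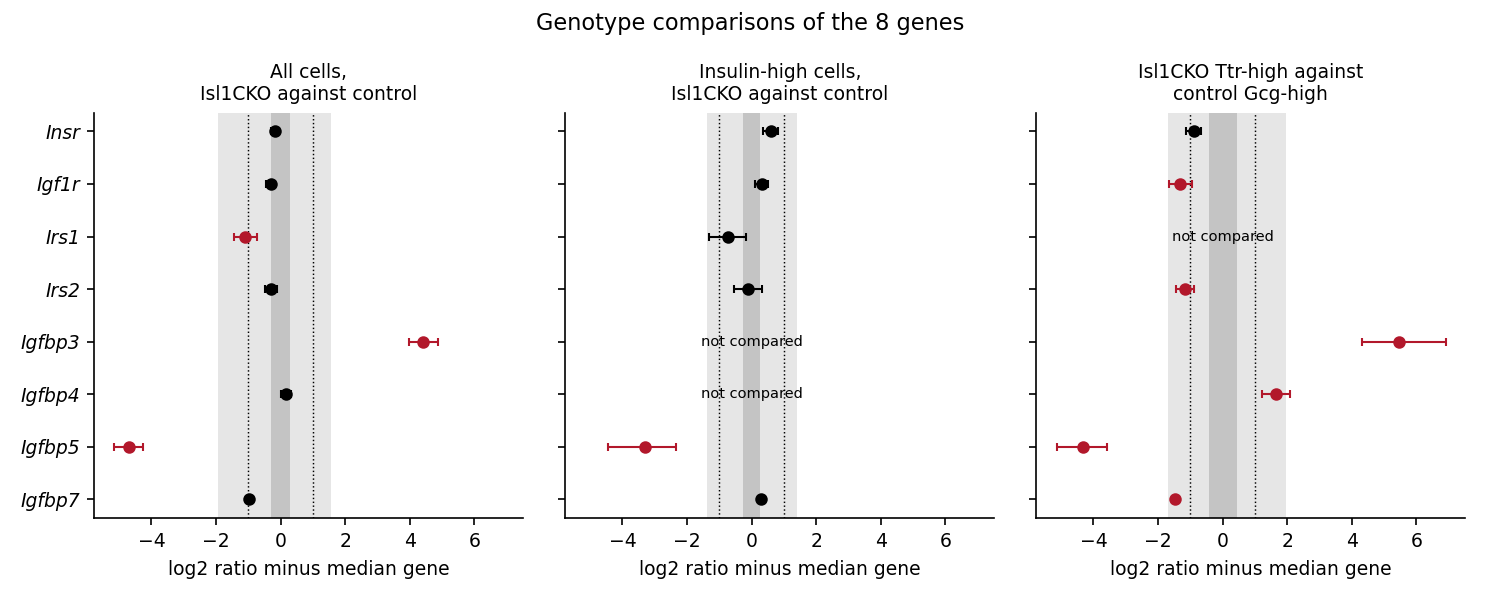
Log2 ratio minus that of the median gene for the 8 genes in 3 genotype comparisons, with 95% counting intervals. Red points are past the 2-fold rule (dotted lines), and the grey bands hold the central 50 and 95 percent of all genes compared. Igfbp5 lies left of the wider band in all 3 panels, and Igfbp3 lies right of it where it was compared.

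Control cells cut by Ttr at the same 5% threshold, a class added after the data were seen, numbered 113. Their Igf1r level was 4.17 (1.80 to 8.21), near the 3.63 of Isl1CKO Ttr-high cells and below the 11.7 of control Gcg-high cells. With both sides cut by Ttr, the relative log2 ratio of Igf1r was -0.28 (-1.29 to 0.96), from 8 control UMIs, in place of -1.30. Igfbp5 was 2.60 in these control cells, from 5 UMIs, against 10.8 in Gcg-high cells. Its ratio was -2.72 (-4.21 to -0.94) in place of -4.32, and it had too few UMIs to be counted. Of 3 members compared Igfbp7 and Igfbp3 passed, with 8.73% of 8057 genes passing upward and 5.98% downward. Igfbp7 was 677 against 203, a relative log2 ratio of -1.82. Igfbp3 had 0 UMIs in these control cells. The lower end of the counting interval put it at least 10.8-fold higher in Isl1CKO relative to the median gene, and a floor of 3 UMIs over the group gave 13.3-fold. Igfbp4 had 6.25 against 13.0, a ratio of 0.97 (0.16 to 1.94), short of the rule.

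Classes within a library were also compared. In the control, Gcg-high against insulin-high cells had 3 of 7 members past the rule in either direction, with 17.5% of 11288 genes. The members were Igfbp4 at 2.80, from 50 and 11 UMIs, Irs1 at -1.61 and Igf1r at -1.68. Sst-high against insulin-high cells had 2 of 6, with 16.1% of 10675 genes: Igfbp5 at 1.90 and Irs1 at -2.90. In Isl1CKO, Ttr-high against insulin-high cells had 5 of 6, with 23.6% of 11188 genes. Igfbp3 at 4.01 and Igfbp4 at 3.55 were higher, and Insr at -1.54, Igfbp7 at -2.35 and Igf1r at -3.34 were lower. Fev-positive against insulin-high cells, which share 145 cells, had 4 of 6, with 16.5% of 11584 genes: Igfbp3 at 3.96, Igfbp4 at 3.07, Igfbp7 at -1.39 and Igf1r at -1.48. These comparisons share their insulin-high cells within a library. Per 1000000 of all UMIs, Igf1r (-0.65) and Irs1 (-0.57) in Gcg-high cells and Insr (-0.70) in Ttr-high cells fell short of the rule, as did Igf1r and Igfbp7 in Fev-positive cells, which also fell short without cells of several classes. The same scaling brought other members past the rule as higher than in insulin-high cells: Insr (1.02) and Irs2 (1.94) in Gcg-high cells, and Insr (1.13), Irs2 (1.00) and Igfbp7 (1.81) in Sst-high cells. That scaling moved the share of higher genes among those past the rule from 53.8% to 94.3% for Gcg-high, 56.6% to 96.0% for Sst-high, 56.6% to 91.1% for Ttr-high and 66.5% to 97.0% for Fev-positive cells.

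The rest of the pathway was followed in 84 genes of 8 lists. Over whole libraries 77 were compared, 9 passed upward and 3 downward, and their median relative log2 ratio was 0.03, beside 5.34% of all 14087 genes upward and 6.98% downward. Among other binding proteins 2 of 4 compared were higher: Igfbp2, from 5.34 to 14.9, and Igfbp1, from 0.354 to 2.07. Among the proteases and their inhibitors 3 of 11 were lower and 1 was higher. Pappa2, a pappalysin that cuts IGFBP5, went from 114.6 to 10.9, a relative log2 ratio of -3.07, and Pappa, the pappalysin that cuts IGFBP4, had 55 and 16 UMIs. Among other substrates and adaptors 2 of 11 were higher, Irs3 at 2.00 and Grb10, an adaptor that dampens insulin receptor signalling, at 1.31. In the PI3-kinase and Akt arm 2 of 18 were higher, Trib3 at 1.76 and Pik3r3 at 1.01. None of 13 mTOR-arm genes and none of 4 ligands and hormone receptors passed. Both IGF ligand genes were sparse, at 60 and 50 UMIs for Igf1 and 209 and 194 for Igf2 in Isl1CKO and control.

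Within insulin-high cells, 57 of the 84 genes were compared, 6 passed upward and 1 downward, and the median was 0.22, beside 4.75% of all 10675 genes upward and 4.38% downward. The FoxO factors and targets had 3 of 12 higher and 1 lower. Klf15, a FoxO-linked transcription factor, went from 4.89 to 21.3, a relative log2 ratio of 2.27, and Fbxo32, a ubiquitin ligase, from 40.5 to 85.3. Txnip, a thioredoxin inhibitor, went from 470.5 to 198.7, a ratio of -1.10. The adaptor Gab1 was higher at 1.41, and Igf2bp1, which binds Igf2 mRNA, at 1.86.

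The genes whose levels followed each member most closely over 8 groups of cells were ranked by Pearson's r among 11841 genes, as a description of groups that share libraries. The closest were Adrbk2 for Insr (0.993), Nfatc2 for Igf1r (0.990), Tmem206 for Irs1 (0.966) and Mgst3 for Igfbp3 (0.985). They were Rgs5, a pericyte marker, for Igfbp4 (0.988), Spidr for Igfbp5 (0.989) and Zfp608 for Igfbp7 (0.989). Irs2 had no gene above 0.95, and its closest was Wdr70 (0.872). With 8 groups, 81 genes exceeded 0.95 for Insr and 60 for Igfbp7.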

How the data were processed

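Whole-number UMI counts per gene and barcode were deposited by the authors, 1 matrix per genotype, and were not normalized. Tools listed in the submitters' processing notes are STAR 2.7.3a with STARsolo and Seurat 4.3.0.1, and the build is GRCm38.p6. The control matrix listed 6794880 barcodes and the Isl1CKO matrix 3020, so only the second had been filtered before deposit. Control cells were barcodes with at least 6825 UMIs (the 99th percentile of the top 3000, divided by 10), and all Isl1CKO barcodes were used, the lowest with 4882 UMIs. No doublet caller was run. Cells in 2 classes were kept in both. Counts were summed per class with Python 3.11.15, numpy 2.4.6, scipy 1.17.1 and pandas 2.3.3, and levels are per 1000000 UMIs outside Ins1, Ins2, Gcg, Sst, Ppy, Pyy, Iapp and Ghrl. Because a 3' UMI counts a transcript end, no division by length was made. The comparison was run on simulated counts that held counting error only, without differences between cells, animals or libraries. In each of the 7 comparisons, 200 of 200 genes changed 4-fold were past the rule in the right direction. Of the others (10013 to 14105 genes) 0.0284% to 0.895% passed. The changed genes were well counted, so recovery of sparse genes, such as Igfbp3 in the control, was not tested. All 8 members are named. From each pathway list, genes were named from the 2 highest and 2 lowest by the interval bound nearest to 0, and for each member the gene of highest Pearson r of log2(level + 1). Of 46983 gene IDs, 46488 matched GENCODE M21, which gave the coordinates. Members and lists were chosen with earlier results of these data known. Alternatives changed the scaling, UMI minimum, cell threshold, mitochondrial limit, class thresholds, cells kept and depth.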

Additional observations from a re-analysis of the deposited data

Results flagged for a closer look

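Insr, Igf1r and Igfbp7 had ratios of opposite sign in the insulin-high comparison and in the comparison of Isl1CKO Ttr-high with control Gcg-high cells, with counting intervals that exclude 0 in both. The relative log2 ratio of the first minus that of the second was 1.48 for Insr, 1.62 for Igf1r and 1.79 for Igfbp7. With 1 library per genotype these differences were not tested. With control cells also cut by Ttr, the second ratio of Igf1r was -0.28 (-1.29 to 0.96). That of Insr was then -1.01 (-1.49 to -0.49) and that of Igfbp7 -1.82 (-1.90 to -1.73).

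Control barcodes below the cell threshold, which no comparison used, held members above their level in control cells. In 872 barcodes from 1000 UMIs to the threshold, Igfbp4 had a level of 87.9, a ratio of 5.88 (4.91 to 7.01), and Insr had 46.0, a ratio of 1.80 (1.43 to 2.23). In barcodes with 1 to 100 UMIs, Igfbp4 had a ratio of 1.46 (1.04 to 2.01) and Igfbp7 of 1.09 (1.04 to 1.13). Mesenchyme-marker cells had a median of 8418.5 UMIs in the control, close to the threshold of 6825, and their part in the barcodes below it was not tested.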

How the results depend on the processing

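Of 46 member ratios, 24 were past the rule, and all 337 alternative values of these kept their sign while 324 stayed past the rule. For the 22 others, 273 of 303 alternative values kept their sign and 280 stayed short of the rule. Alternatives in which a gene fell under the UMI minimum are not among these values, so calls lost that way are not counted. For Igfbp4 in control Gcg-high against insulin-high cells, from 50 UMIs, only 7 alternatives remained. Igfbp3 and Igfbp5 stayed past the rule under every alternative that could compare them over whole libraries, from 3.85 to 5.50 and from -5.50 to -3.93. The number of members past the rule moved by more than 1.5 times in these settings. Without cells holding 5 UMIs of another type's markers (2481 Isl1CKO and 2047 control cells kept), the whole-library count was 5. In insulin-high cells it was 2 with a minimum of 10 UMIs, 2 in cells with Y-linked UMIs and no Xist, 0 in cells with Xist and no Y-linked UMI and 0 after thinning, where 3 and 1 members were compared. With control cells cut by Ttr, the Ttr-high count was 2 of 3 compared. For control Gcg-high against insulin-high cells it was 1 in cells with Xist and 1 after thinning. For Sst-high cells it was 5 per 1000000 of all UMIs and 1 after thinning. For Isl1CKO Ttr-high against insulin-high cells it was 3 after thinning. For Fev-positive cells it was 2 per 1000000 of all UMIs and 2 without cells of several classes. Thinning and single-sex subsets leave fewer UMIs, so fewer members are compared. For the other changes the cause was not tested. Irs1 over whole libraries was not past the rule per 1000000 of all UMIs, by per-cell means or without cells of several classes. Igfbp7, short of the rule there, passed under 4 alternatives. No paired analysis was possible because each genotype has 1 library, so no library could be left out either. Depth limits Irs1 and the minor classes, where under 50 UMIs were counted.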

Other observations

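Cells were also described by the sex their transcripts showed, as an added description of pooled animals. In Isl1CKO, Igfbp3 had a level of 26.2 (24.6 to 27.8) in 1799 cells with Y-linked UMIs and no Xist and 14.4 (12.9 to 16.1) in 989 cells with Xist and no Y-linked UMI. Insulin-high cells, which have little Igfbp3, were 130 of the first and 221 of the second, and their part in this difference was not tested. In the control, Igfbp4 was 18.6 and 2.86 in the corresponding 1761 and 452 cells, with 44 and 0 mesenchyme-marker cells among them. The part of mesenchyme-marker cells in that difference was not tested.

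In 249 Ttr-high cells with at least 2 UMIs of Mki67 and Top2a, which mark cycling cells, Insr had a level of 6.97 (5.32 to 8.97) and Igfbp4 of 8.71 (6.85 to 10.9). The other 1196 Ttr-high cells had 11.2 (10.1 to 12.4) and 14.0 (12.8 to 15.3). Igf1r, at 3.95 and 3.55, and Igfbp3, at 20.2 and 22.3, had overlapping intervals. Ttr-high cells that were Fev-positive and those that were not had Irs2 at 5.57 and 9.90.

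In 425 control cells with Ppy, the pancreatic polypeptide gene, at 5% or more of UMIs, Igfbp5 had a level of 35.2 (30.2 to 40.8) and Igfbp7 of 1772. Of these cells 188 were also Sst-high. In the 237 others Igfbp5 was 16.3 (12.2 to 21.5), which overlaps the insulin-high value, and Igfbp7 was 1721 (1675 to 1767), between the insulin-high and Sst-high values.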
